A study of Mus musculus with 35 samples.

Results

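The response of wild-type bone marrow-derived macrophages (BMDMs) to lipopolysaccharide (LPS) in the presence of dexamethasone (Dex), a synthetic glucocorticoid, was measured by comparing LPS + Dex with Dex alone. These groups hold 3 libraries each, 6 of the 35 libraries of the series, and were taken by genotype and treatment as the labels give them. Genes with a mean of at least 1 FPKM (fragments per kilobase, corrected for library size) were compared, 11471 of 47069 gene identifiers. The BMDMs were grown from bone marrow of C57BL/6 mice in medium with 30% L929 cell-conditioned supernatant, a source of macrophage growth factor, and RNA was collected 24 h after addition of 100 nM Dex, with or without 100 ng/ml LPS. The study's methods give mixed-sex mice of 8 to 15 weeks for all experiments, and the labels describe both groups as wild type with no further allele. Beside the comparison stand 3 wild-type libraries with vehicle (DMSO), 2 with LPS alone, and the Dex and LPS + Dex libraries of mice labelled AMPKa1-/-, 3 each. The question was which part of the LPS response remained at 24 h when Dex was present.

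LPS of Gram-negative bacteria is bound by LBP and CD14 and passed to TLR4 and its partner MD-2, encoded by Ly96. From there the adaptors MyD88 and TRIF switch on NF-kB and IRF3, and with them cytokines, chemokines and interferon-β, whose own receptor then drives interferon-stimulated genes. Glucocorticoids bind the glucocorticoid receptor, encoded by Nr3c1, which represses many NF-kB and IRF3 targets and induces other genes, among them inhibitors of signaling and acute-phase genes.

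The 6 libraries held 15942581 to 28176237 fragments, a depth recovered from the smallest increments of FPKM among genes of few fragments. LPS + Dex replicate 1 was the deepest, and its values in the file stand under a name that orders the letters differently from its sample title. In it Saa3 made up 16.0% of the summed FPKM, as against 18.1% and 24.0% in the other LPS + Dex libraries, 0.0502% to 0.224% with Dex and 7.12% and 7.20% with LPS alone. This places it with the LPS + Dex group. The LPS + Dex libraries were less alike than the Dex libraries. Pearson correlations of log2(FPKM + 1) were 0.987 to 0.993 among the former, lowest between replicates 1 and 3, and 0.994 to 0.995 among the latter.

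Macrophage markers were present in all 6 libraries, 3 of the 7 higher and 3 lower with LPS + Dex, beside 19.4% and 43.3% of all genes tested. After centring libraries on one median 3 were higher and 2 lower, beside 29.3% and 28.7%. Lyz2, the macrophage lysozyme, lay at 20418, 16768 and 20238 FPKM with Dex and 24420.1, 24473 and 29195 FPKM with LPS + Dex, a difference of 0.44 that did not pass. Adgre1, which encodes F4/80, was at 861, 669 and 688 FPKM with Dex and 2745, 2751 and 1840.4 FPKM with LPS + Dex. The markers Cd68, Mertk and Csf1r were lower, with differences of -1.95, -1.90 and -0.42 in log2(FPKM + 1), that of Csf1r not after centring libraries on one median (-0.10, adjusted p = 0.62). Lyz2, Adgre1 and Csf1r were chosen after their values were seen. All 7 macrophage markers passed the filter, and their summed level, most of it Lyz2, was 22758, 19248 and 22756 FPKM with Dex and 27941, 28167 and 31867 FPKM with LPS + Dex. Markers of other cell types were mostly low, and their sums are given by list. Of 10 neutrophil markers 2 passed the filter, Camp and Mmp8, while Ly6g, Mpo and Elane did not exceed 0.117 FPKM in any of the 6 libraries. The neutrophil list summed to 32.2, 18.4 and 24.5 FPKM with Dex and 37.3, 34.3 and 53.0 FPKM with LPS + Dex, most of it Mmp8 in the former and Camp in the latter. The 8 lymphocyte markers summed to at most 3.35 FPKM in any library, with Cd79b the most abundant on average and 4 of them at 0 throughout. The dendritic cell list of 7 summed to at most 1.67 FPKM, with Ccr7 the most abundant in LPS + Dex and Cd209a at 0. For the 5 mast cell and basophil markers and the 6 erythroid markers no member passed the filter, and neither list summed to more than 0.335 FPKM. The 6 fibroblast markers summed to 11.9, 15.1 and 24.7 FPKM with Dex and 9.33, 2.64 and 8.22 FPKM with LPS + Dex, and consisted mainly of Col1a1, Col1a2 and Dcn. The 5 endothelial markers summed to 12.2, 21.5 and 16.6 FPKM with Dex and 5.24, 5.88 and 2.11 FPKM with LPS + Dex, most of it Vwf with Dex, while Cdh5, which encodes VE-cadherin, did not exceed 0.0445 FPKM. The fibroblast and endothelial sums were thus lower after LPS, but not every member fell. Of 4 tested fibroblast markers 1 rose and 2 fell, and of 3 tested endothelial markers 1 rose and 2 fell. These compare with 19.4% and 43.3% of all genes tested. Dcn and Pecam1 were the ones that rose, each called under 22 of 22 settings. The falls of Col1a1, Col1a2 and Kdr lost their call under at least 1 alternative, and that of Vwf did not. The part of these lists in the results was not tested. In cultures such as these, fewer cells of a type and less RNA per cell cannot be told apart.

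LPS changed the expression of most tested genes with Dex present. A total of 7192 of 11471 genes (62.7%) passed an adjusted p of 0.05 in limma's moderated test with Benjamini-Hochberg adjustment, 2230 of them higher (19.4% of all tested) and 4962 lower (43.3%). A change of at least 2-fold besides was found for 985 higher (8.59%) and 2082 lower genes (18.2%). Differences are given throughout on the scale of log2(FPKM + 1), with the standard error of the fit, so that changes of genes near or below 1 FPKM are understated. A response is called larger or smaller with Dex where the response with Dex minus that without passed above or below 0. For LPS + Dex against Dex the median over all genes was -0.31. The summed FPKM were 647329 to 689281 in the Dex libraries and 787160 to 939953 in the LPS + Dex libraries, where Saa3 alone took 16.0% to 24.0%. When libraries were centred on one median, 3364 genes (29.3%) were higher and 3289 (28.7%) lower, so the surplus of lower genes depends on the scale, and each value below is to be read against this median of -0.31.

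The 10 largest rises included Lcn2, Saa3, Marco and Socs3. Lcn2, which encodes the iron-siderophore-binding lipocalin 2, was at 11.9, 6.35 and 17.7 FPKM with Dex and 14828, 18873 and 22431 FPKM with LPS + Dex, a difference of 10.57 ± 0.46 (adjusted p = 1.9e-08). Saa3, an acute-phase serum amyloid A made by macrophages, was at 683, 325 and 1546 FPKM with Dex and 125958, 153213 and 225316 FPKM with LPS + Dex, a difference of 7.86 ± 0.56 (adjusted p = 7.3e-07). The groups lay far apart for both, although Saa3 varied more than 4-fold among the Dex libraries, from replicate 2 at the bottom to replicate 3 at the top. Marco, a scavenger receptor for bacteria, was at 17.5, 10.1 and 19.5 FPKM with Dex and 2542, 3665 and 4528 FPKM with LPS + Dex (7.76 ± 0.28). Susd2, a membrane protein with a sushi domain, went from 0.245, 0.281 and 0.585 FPKM to 365, 375 and 458 FPKM (8.19 ± 0.19). Every LPS + Dex library stood above every Dex library for these genes, as the rule for naming them required.

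Chil1, a chitinase-like secreted protein, went from 0.512, 0.0979 and 0.192 FPKM to 253, 207 and 419 FPKM (7.80 ± 0.24). Acod1, the enzyme that makes itaconate from a TCA cycle intermediate, went from 0.143, 0.123 and 0.444 FPKM to 264, 143 and 395 FPKM (7.65 ± 0.32). S100a8, a subunit of the calcium-binding protein calprotectin, went from 3.95, 1.10 and 4.19 FPKM to 617, 478 and 1147 FPKM (7.53 ± 0.61). Chil1 and Acod1 were below 1 FPKM with Dex alone, and S100a8 below 5. Pilra, an inhibitory receptor of myeloid cells, rose by 7.20 ± 0.19 from 0.525, 0.201 and 1.13 FPKM to 219.6, 220.3 and 255 FPKM. The chemokine Ccl5, which attracts T cells and monocytes, rose by 7.06 ± 0.59 from 22.3, 5.76 and 21.3 FPKM to 1495, 1145 and 4902 FPKM, replicate 3 being far above the other LPS + Dex libraries. Socs3, which inhibits signaling of the IL-6 receptor family, rose by 6.87 ± 0.25 from 1.83, 1.82 and 3.19 FPKM to 372, 384 and 374 FPKM, the tightest of the LPS + Dex groups among the 10.

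**Figure D1:**
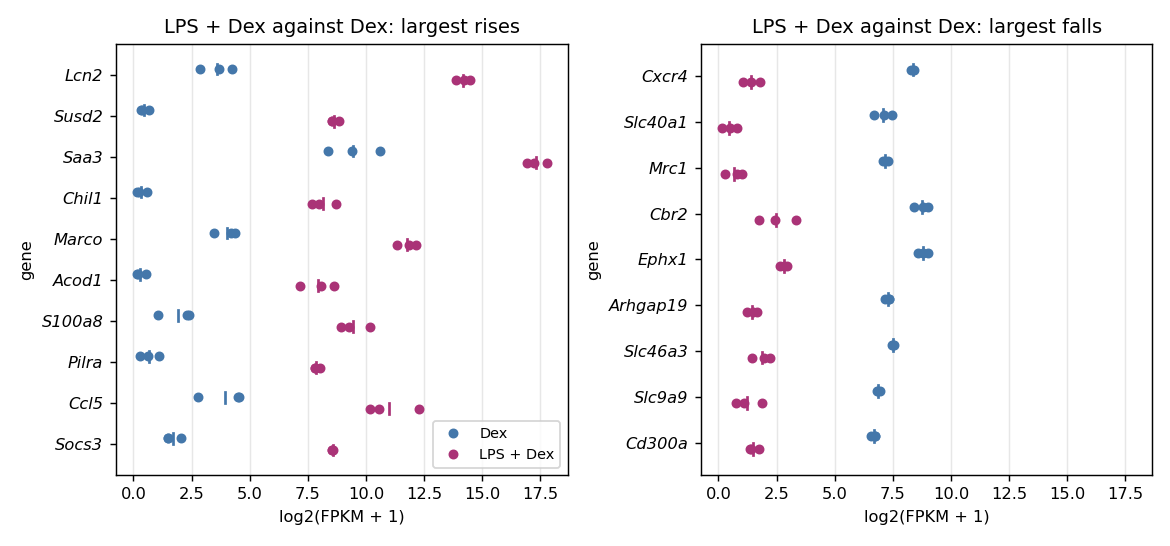
Expression of the 10 genes with the largest rises (left) and 9 with the largest falls (right) in LPS + Dex against Dex, as log2(FPKM + 1). Each point is 1 of 3 libraries per group and each bar the group mean; Dex and LPS + Dex do not overlap for any of these genes, as the rule for choosing them required.

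The start regions of genes with a large or a nearly lost response are shown to give the sequence beside the values. They are Lcn2 with the largest rise, Saa3 with the most abundant transcript, and Cxcl10, whose response to LPS was nearly lost with Dex. The sequences are those of RefSeq for GRCm38.p6, 250 bases before to 50 bases after the start, on the strand of the gene (minus for all of them). The start used lay 513 bases from the gene start of the annotation for Lcn2, 24 for Saa3 and 0 for Cxcl10. Among the other regions counted below it lay 681 bases away for Socs3 and 3335 for Ephx1. Capitals mark matches, on either strand, to the C/EBP motif TTGCNNAA and to the NF-kB consensus.
Lcn2 chr2:32387690-32387989: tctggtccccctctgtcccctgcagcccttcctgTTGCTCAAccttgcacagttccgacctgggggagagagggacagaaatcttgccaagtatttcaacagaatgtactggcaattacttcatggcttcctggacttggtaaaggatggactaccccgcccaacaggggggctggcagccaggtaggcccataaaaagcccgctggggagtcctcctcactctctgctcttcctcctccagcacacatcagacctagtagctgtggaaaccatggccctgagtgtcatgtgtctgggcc
Saa3 chr7:46715627-46715926: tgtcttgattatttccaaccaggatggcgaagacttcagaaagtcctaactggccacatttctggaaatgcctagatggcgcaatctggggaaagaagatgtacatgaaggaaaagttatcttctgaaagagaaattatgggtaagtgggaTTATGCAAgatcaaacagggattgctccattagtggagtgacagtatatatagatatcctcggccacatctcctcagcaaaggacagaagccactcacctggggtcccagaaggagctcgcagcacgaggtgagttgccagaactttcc
Cxcl10 chr5:92348840-92349139: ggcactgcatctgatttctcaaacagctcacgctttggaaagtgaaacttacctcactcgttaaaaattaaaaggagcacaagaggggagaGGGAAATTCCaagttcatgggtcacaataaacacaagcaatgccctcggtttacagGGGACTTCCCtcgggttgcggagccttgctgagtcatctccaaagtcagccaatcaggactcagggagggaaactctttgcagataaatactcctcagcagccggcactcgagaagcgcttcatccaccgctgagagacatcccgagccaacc
Lcn2 and Saa3 each hold 1 C/EBP match, beginning 216 and 99 bases before the start, and no match to the NF-kB consensus. Cxcl10 holds 2 NF-kB matches, beginning 159 and 103 bases before the start, and no C/EBP match. Of all 32851 regions of this length in the table, 10.8% hold the C/EBP motif and 4.51% the NF-kB consensus. Among the 10 largest rises 8 have a region in the table, of which 3 hold the C/EBP motif and 1 the NF-kB consensus. The 5 genes with the largest loss of response, described further on, all have a region, of which 1 holds the C/EBP motif and 2 the NF-kB consensus. The glucocorticoid receptor half-site pair ACANNNTGT was found in 2 of the 8 regions of rising genes, Lcn2 and S100a8, and in 6.85% of all regions. The STAT motif TTCNNNGAA was found in 1, that of Socs3, and in 8.30% of all. Of the largest falls 8 have a region. Cd300a holds 1 match each to C/EBP and NF-kB, Slc46a3 holds 1 STAT match, and none holds the glucocorticoid receptor pair. Of 3 regions among the largest differences of the responses above 0, 1 holds the C/EBP motif (Cxcl13) and 1 the glucocorticoid receptor pair. The latter is the S100a8 region already counted among the rises. Among 11099 regions of tested genes the shares were 8.89% for C/EBP, 5.23% for NF-kB, 6.87% for STAT and 4.14% for the receptor pair. A match is a description of letters only, and binding was not measured.

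Cxcr4 had the largest fall of the genes reported. Cxcr4, the receptor for the chemokine CXCL12, was at 331, 310.1 and 341 FPKM with Dex and 1.63, 2.45 and 1.10 FPKM with LPS + Dex, a difference of -6.94 ± 0.17 (adjusted p = 5.8e-10). Slc40a1, which encodes ferroportin, the only known cellular iron exporter, was at 138, 103 and 175 FPKM with Dex and 0.728, 0.108 and 0.404 FPKM with LPS + Dex (-6.62 ± 0.27). Mrc1, the mannose receptor, was at 133, 141 and 154 FPKM with Dex and 1.00, 0.744 and 0.211 FPKM with LPS + Dex (-6.47 ± 0.18). These genes were thus above 100 FPKM in every Dex library and below 3 FPKM in every LPS + Dex library. Cbr2, a carbonyl reductase, fell from 337, 522 and 443 FPKM to 4.33, 9.19 and 2.31 FPKM (-6.25 ± 0.49). Ephx1, the microsomal epoxide hydrolase, fell from 388, 448 and 518 FPKM to 5.27, 6.82 and 6.11 FPKM (-6.00 ± 0.15). The others of the 9 reported were Arhgap19, a GTPase-activating protein, the solute carriers Slc46a3 and Slc9a9, and the inhibitory receptor Cd300a, with differences between -5.82 and -5.18. Without Dex these 9 genes differed by -7.18 for Cxcr4 to -2.26 for Cbr2, and the responses with and without Dex passed a test of their difference for Cbr2 alone. Dex had Cbr2 far above the 5.598, 26.1 and 14.2 FPKM of vehicle cells, and the difference of its responses was -3.98 ± 0.73 (adjusted p = 0.0025). For the other 8 that difference lay between -0.50 and 0.59.

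Cd14 rose with LPS in the presence of Dex, whereas Tlr4 and Ly96 fell. Cd14, the co-receptor, rose from 163, 135 and 189 FPKM with Dex to 882, 502 and 1337 FPKM with LPS + Dex, a difference of 2.38 ± 0.29. Tlr4, the signaling receptor, fell from 62.0, 47.9 and 34.6 FPKM to 19.8, 10.7 and 6.25 FPKM, a difference of -1.98 ± 0.35 (adjusted p = 6.0e-04). Ly96 fell from 85.2, 65.7 and 66.8 FPKM to 26.6, 30.8 and 24.8 FPKM (-1.37 ± 0.14). Without Dex the difference of Tlr4 was -0.03 ± 0.39, and the responses with and without Dex differed by -1.95 ± 0.53 (adjusted p = 0.020). That difference lost its call without Dex replicate 1 (-1.75, adjusted p = 0.052) or LPS replicate 2 (-1.52, adjusted p = 0.11), with no filter on low values (adjusted p = 0.060) and with no moderation (adjusted p = 0.073). The adaptors changed little. Myd88 rose by 0.42 ± 0.14 and Ticam1, which encodes TRIF, by 0.44 ± 0.13 (adjusted p = 0.023 and 0.011). Myd88 lost its call with only the 6 libraries compared (adjusted p = 0.058), without Dex replicate 1 or 2 (adjusted p = 0.074 and 0.079) and without LPS + Dex replicate 2 (0.28, adjusted p = 0.10). Ticam2, the bridging adaptor of TRIF, differed by -0.35 ± 0.17 (adjusted p = 0.10) and Nr3c1 by -0.38 ± 0.24 (adjusted p = 0.20), and neither passed. With a replicate block Ticam2 passed in the fit of 11 libraries (adjusted p = 0.043) but not in that of the 6 compared (adjusted p = 0.11). Without LPS + Dex replicate 1 both passed, at -0.48 (adjusted p = 0.035) and -0.63 (adjusted p = 0.024). Lbp was below 0.15 FPKM in all 6 libraries and was not tested. Over the pathway list of 18 tested genes 6 rose and 7 fell, beside 19.4% and 43.3% of all genes tested, with a median of -0.37 against -0.31 for all genes. After centring 6 rose and 4 fell (29.3% and 28.7%), and without LPS + Dex replicate 1 the counts were 6 and 10. The decoy kinase Irak3, which restrains signaling from the receptor, rose by 2.79 ± 0.16, and Tlr2, the receptor for bacterial lipopeptides, by 2.62 ± 0.13.

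Most genes of the NF-kB list rose with LPS when Dex was present. The list holds subunits and feedback inhibitors, and also other genes such as Traf1, Bcl2a1d and Birc3. Of 19 tested genes 15 rose and 1 fell, beside 19.4% and 43.3% of all genes tested, with a median of 1.56, as against 1.61 without Dex. The response was smaller with Dex for 7 of them and larger for 2, beside 12.9% and 12.4% of all genes tested, with a median difference of the responses of -0.63. Tnip3, an A20-binding inhibitor, went from 3.87, 4.77 and 3.92 FPKM to 87.6, 85.2 and 57.6 FPKM, a difference of 3.89 ± 0.15. Tnfaip3, which encodes A20 itself, went from 14.4, 16.4 and 16.7 FPKM to 165, 109 and 124 FPKM, a difference of 2.97 ± 0.20. The groups did not overlap for either. The adaptor Traf1 rose by 3.69 ± 0.23 and the survival gene Bcl2a1d by 3.15 ± 0.27, the latter a member of a family of near-identical copies whose reads may be split between them. The response of Bcl2a1d was smaller with Dex than without (difference of the responses -2.81 ± 0.40), and that of Tnip3 larger (2.48 ± 0.23). Dex alone had Tnip3 at about 4 FPKM, as against 44.0, 49.5 and 45.6 FPKM with vehicle.

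Most cytokine genes rose with LPS in the presence of Dex, and the summed level of the list was lower than with LPS alone. The list, most of whose sum with LPS alone was Il1b, summed to 74.0, 66.6 and 80.1 FPKM with Dex, 483, 262 and 570 FPKM with LPS + Dex and 18770 and 21969 FPKM with LPS alone. Of 19 tested cytokine genes 12 rose and 3 fell (19.4% and 43.3% of all genes tested), with a median of 2.03 as against 3.196 without Dex, and the response was smaller with Dex for 12 and larger for 2 (12.9% and 12.4%). The 2 larger ones were lost without Dex replicate 2, LPS replicate 2 or LPS + Dex replicate 2. Il1b, which encodes interleukin-1β, was at 0.311, 0.134 and 1.51 FPKM with Dex, 211, 38.2 and 292 FPKM with LPS + Dex and 13932 and 16653 FPKM with LPS alone. Its rise with Dex was 6.44 ± 0.60, and the difference of its responses -4.90 ± 0.90 (adjusted p = 0.0025). Even so, LPS + Dex replicate 2, the lowest, stood over 25-fold above the highest Dex library. Tnf was at 0.162, 0.174 and 0.716 FPKM with Dex and 20.8, 22.0 and 30.3 FPKM with LPS + Dex, a rise of 4.24 ± 0.23, and 11.2, 7.75 and 12.5 FPKM with vehicle. The difference of its responses, -0.87 ± 0.34, did not pass (adjusted p = 0.083), but passed without LPS + Dex replicate 3 (-1.03, adjusted p = 0.041), and turned its direction with a pseudocount of 0.1 (0.73, adjusted p = 0.37). Il1rn, the interleukin-1 receptor antagonist, rose by 4.28 ± 0.24 from 2.12, 1.86 and 4.09 FPKM to 88.7, 52.7 and 68.4 FPKM. Il12a, a subunit of IL-12, rose by 3.11 ± 0.35 to 8.02, 3.66 and 15.8 FPKM, where LPS alone gave 354 and 287 FPKM (difference of the responses -5.16 ± 0.52).

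Of 21 tested chemokine genes 12 rose and 2 fell (19.4% and 43.3% of all genes tested), with a median of 1.36, as against 5.49 without Dex, and for 14 the response was smaller with Dex and for 1 larger (12.9% and 12.4%). For Ccl5 LPS alone gave 4094 and 11277 FPKM, and the difference of the responses, -1.08 ± 0.89, did not pass (adjusted p = 0.38). Cxcl2, which attracts neutrophils, rose by 3.02 ± 0.33 from 1.39, 2.38 and 2.10 FPKM to 20.7, 14.3 and 38.9 FPKM, but LPS alone gave 1291 and 668 FPKM. Ccl3, which attracts monocytes, rose by 3.14 ± 0.49 to 118, 51.1 and 337 FPKM. The LPS + Dex libraries of Ccl3 spread more than 6-fold, from replicate 2 to replicate 3. Ccl6, a chemokine expressed at rest, went the other way, from 402, 97.7 and 317 FPKM to 10.98, 5.76 and 10.3 FPKM (-4.58 ± 0.55).

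Interferon-stimulated genes had the largest share of smaller responses with Dex among the 23 lists. Of 36 tested genes 16 rose with LPS in the presence of Dex and 2 fell, beside 19.4% and 43.3% of all genes tested, with a median of 0.43 (0.24 without LPS + Dex replicate 1 and 0.74 after centring). Without Dex 34 rose (18.6% of all genes tested), with a median of 3.96, and the response was smaller with Dex for 33 of 36 genes, as against 12.9% of all genes tested. After centring 24 rose and 1 fell (29.3% and 28.7%), and 33 responses were smaller with Dex. Isg15, a ubiquitin-like protein, was at 4.65, 3.43 and 4.55 FPKM with Dex, 48.1, 31.5 and 76.7 FPKM with LPS + Dex and 1578 and 2060.2 FPKM with LPS alone. The rise with Dex was 3.27 ± 0.29, and the difference of the responses -3.66 ± 0.44 (adjusted p = 1.6e-04). The GTPase Gbp3 rose by 3.18 ± 0.29 and the antiviral gene Oasl1 by 2.67 ± 0.28, with differences of the responses of -2.81 ± 0.43 and -4.25 ± 0.42. Bst2, which tethers virus particles to the cell, went from 167, 127 and 180.2 FPKM to 896, 866 and 1498 FPKM (2.74 ± 0.22), and its responses differed by -0.84 ± 0.32 (adjusted p = 0.080), which did not pass. It passed without LPS + Dex replicate 3 (-1.10, adjusted p = 0.0079) and after quantile normalization (-0.78, adjusted p = 0.040).

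**Figure D2:**
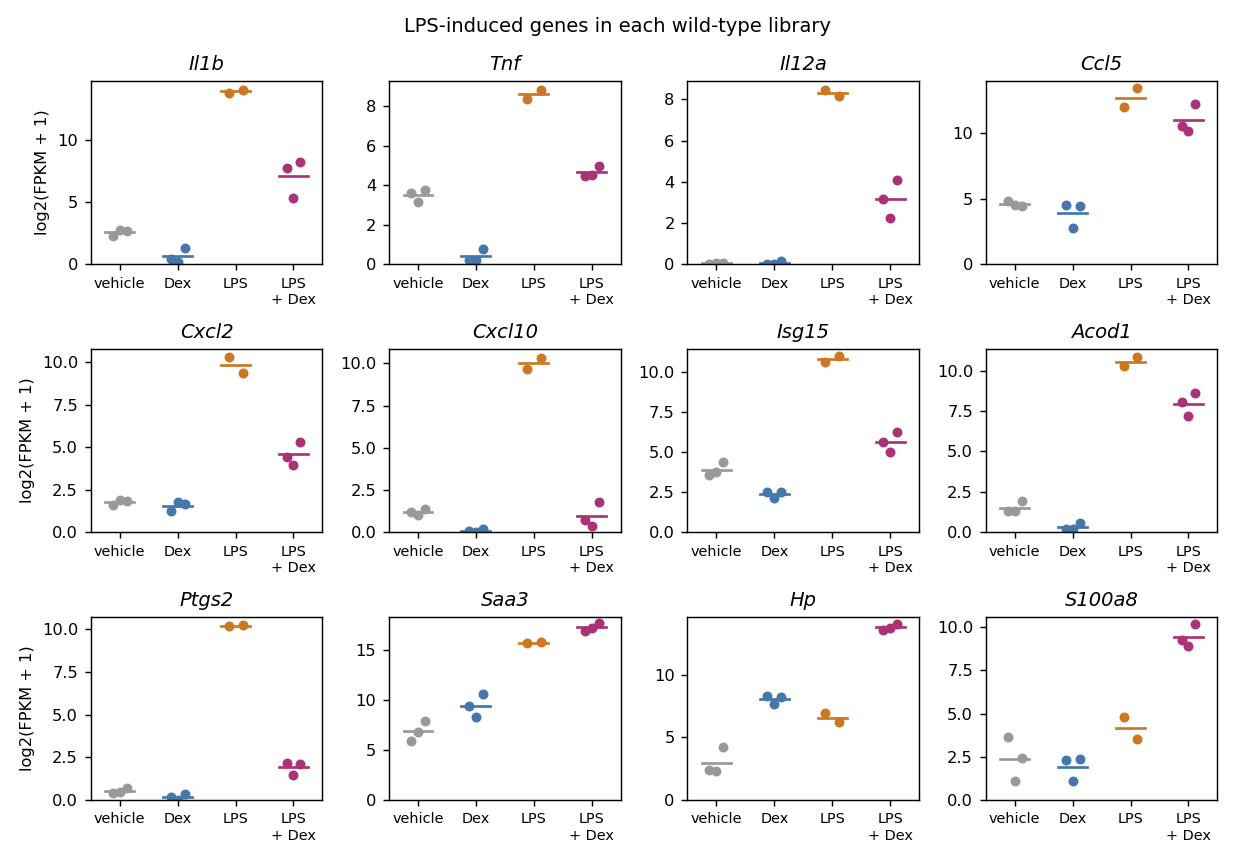
Expression of 12 LPS-induced genes in the 11 wild-type libraries, as log2(FPKM + 1), by treatment; the bars are group means and the vertical axes differ between genes. With LPS + Dex, Cxcl10 and Ptgs2 lay far below LPS alone and nearer the levels without LPS, although Ptgs2 rose above Dex. Il1b, Tnf, Il12a, Cxcl2, Isg15 and Acod1 lay between Dex and LPS, Ccl5 overlapped LPS alone, and Saa3, Hp and S100a8 were highest.

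Most acute-phase and antimicrobial genes rose with LPS in the presence of Dex. Of 19 tested genes 15 rose and 1 fell, beside 19.4% and 43.3% of all genes tested, with a median of 3.48 as against 2.12 without Dex, and 8 had a larger response with Dex and 1 a smaller, beside 12.4% and 12.9% of all genes tested. The 8 became 5 without LPS replicate 3 or LPS + Dex replicate 3. Lcn2 reached 1603 and 1076 FPKM with LPS alone, less than in any LPS + Dex library, and its responses differed by 2.91 ± 0.68 (adjusted p = 0.010), which with no moderation did not pass (adjusted p = 0.051). S100a8 reached 27.0 and 10.6 FPKM with LPS alone, and its responses differed by 5.72 ± 0.91 (adjusted p = 0.0011). Saa3 reached 53811 and 57212 FPKM with LPS alone, below all LPS + Dex libraries, but the difference of the responses did not pass (-1.04 ± 0.84, adjusted p = 0.38). That of Saa3 was -0.47 without Dex replicate 3 and -2.67 after quantile normalization, where it passed (adjusted p = 0.024). Saa3 with Dex alone was also above the 58.8, 108 and 239.8 FPKM of vehicle cells. Camp, the cathelicidin, rose by 5.15 ± 0.26 from 0.331, 0 and 0.0698 FPKM to 34.8, 32.9 and 52.1 FPKM, and LPS alone gave 133 and 113 FPKM.

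Iron-handling genes moved both ways, with 6 of 15 tested genes higher and 6 lower (19.4% and 43.3% of all genes tested), and 9 and 5 after centring (29.3% and 28.7%). Hp, haptoglobin, which captures free hemoglobin, was at 308, 197 and 298 FPKM with Dex and 12453, 13518 and 17201 FPKM with LPS + Dex, a difference of 5.76 ± 0.43 (adjusted p = 9.9e-07). Vehicle cells had 4.21, 3.99 and 17.3 FPKM and LPS alone gave 121 and 74.0 FPKM, so every LPS + Dex library lay over 40-fold above every other library. The responses differed by 2.14 ± 0.64 (adjusted p = 0.031), a call kept under 11 of 20 settings. It was lost with a pseudocount of 0.1 (adjusted p = 0.067), after quantile normalization (1.43, adjusted p = 0.10), with no filter on low values (adjusted p = 0.086), with no moderation (adjusted p = 0.098), and in the absence of Dex replicate 1 or 2, LPS replicate 3 or LPS + Dex replicate 2 or 3 (adjusted p of 0.051 to 0.12). Cp, ceruloplasmin, the ferroxidase that aids iron export, rose by 5.61 ± 0.19 from 9.01, 10.4 and 13.4 FPKM to 708, 515 and 523 FPKM, while ferroportin fell as described. Complement genes gave 6 rises and 6 falls of 14 tested, beside 19.4% and 43.3% of all genes tested. C3, the central component, rose by 2.48 ± 0.22 from 214, 119.8 and 155 FPKM to 1024, 864 and 795 FPKM and Cfb, factor B of the alternative pathway, by 2.42 ± 0.18 to 5.84, 4.12 and 4.37 FPKM. Itgam, the α chain of complement receptor 3, went from 9.12, 13.3 and 12.1 FPKM to 64.9, 83.8 and 72.1 FPKM (2.58 ± 0.20), near the 63.9, 62.5 and 64.3 FPKM of vehicle cells.

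Effector enzymes were induced selectively. Of 20 tested genes 13 rose and 2 fell (19.4% and 43.3% of all genes tested), with a median of 1.64 as against 3.48 without Dex, and 5 responses were larger and 10 smaller with Dex (12.4% and 12.9%). Acod1 was induced by LPS in both settings, and its responses, 7.65 with and 9.06 without Dex, differed by -1.41 ± 0.48 (adjusted p = 0.052), which did not pass. It passed without LPS + Dex replicate 1 (-1.46, adjusted p = 0.048), LPS + Dex replicate 3 (-1.75, adjusted p = 0.0091) or vehicle replicate 3 (-1.604, adjusted p = 0.042), after quantile normalization (-1.51, adjusted p = 0.033) and with a mean of at least 5 FPKM (adjusted p = 0.049). With a pseudocount of 0.1 the Acod1 difference was 0.0074 (adjusted p = 0.99). Ptges, which makes prostaglandin E2 from its precursor, rose by 6.04 ± 0.27 from 1.83, 1.29 and 2.26 FPKM to 209, 114 and 246 FPKM. Slc7a2, an arginine transporter, rose by 4.51 ± 0.33 from 5.95, 6.94 and 4.49 FPKM to 222, 96.4 and 163 FPKM, a smaller response than without Dex (-2.02 ± 0.49), although not called without LPS replicate 2 (-1.73, adjusted p = 0.071) or with no moderation (adjusted p = 0.054). Nos2, inducible nitric oxide synthase, chosen after its values were seen, did not pass. It was at 0, 0 and 0.0126 FPKM with Dex, 0.195, 0.130 and 1.11 FPKM with LPS + Dex and 35.7 and 134 FPKM with LPS alone.

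Most glycolytic genes and HIF1 targets rose with and without Dex, with similar medians. Of 24 tested genes 18 rose and 1 fell, beside 19.4% and 43.3% of all genes tested, with a median of 1.11 as against 1.16, and 7 responses were larger (4 without LPS replicate 2) and 4 smaller with Dex, beside 12.4% and 12.9% of all genes tested. Slc16a3, the lactate exporter, rose by 2.61 ± 0.17 from 27.5, 30.0 and 36.1 FPKM to 172, 169 and 255 FPKM. Pgk1, a glycolytic kinase, rose by 2.36 ± 0.11 from 119, 108 and 127 FPKM to 587, 579 and 658 FPKM. Pfkl, the liver type of phosphofructokinase, rose by 2.44 ± 0.13, and Pfkfb3, which makes its activator, by 2.28 ± 0.23. Pfkfb3 was already at 122, 107 and 124 FPKM with Dex alone, as against 27.7, 21.4 and 25.9 FPKM with vehicle, and reached 863, 561 and 389 FPKM with LPS + Dex, above the 146 and 120.0 FPKM of LPS alone.

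Most of the tested mitochondrial genes rose with LPS when Dex was present. Of 71 nuclear genes of the respiratory chain and ATP synthase 67 rose and none fell (19.4% and 43.3% of all genes tested), 44 of them at least 2-fold (8.59%), with a median of 1.20. Without Dex 14 rose and 2 fell (18.6% and 32.6%), with a median of 0.17. The difference of the responses lay above 0 for 55 genes (12.4%) and below 0 for none. Without LPS replicate 2 the 55 became 32. Ndufc2, a subunit of complex I, was at 134, 105 and 124 FPKM with Dex and 577, 446 and 599 FPKM with LPS + Dex, a difference of 2.15 ± 0.14 (adjusted p = 4.9e-07). Vehicle gave 181, 196 and 168 FPKM and LPS alone 303 and 362 FPKM, so that Dex alone had the lowest and LPS + Dex the highest level. Uqcrq, a subunit of complex III, rose by 2.18 ± 0.19 from 79.6, 59.0 and 84.0 FPKM to 267, 328 and 429.8 FPKM. Atp5g1, a subunit of the rotor ring of ATP synthase, rose by 1.96 ± 0.15, and Ndufc1 of complex I by 1.86 ± 0.17. The 4 that did not pass were Ndufa6, Atp5g2, Ndufb2 and Ndufb11, named after their values were seen.

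TCA cycle genes followed with smaller changes. Of 17 tested genes 14 rose and 2 fell, beside 19.4% and 43.3% of all genes tested. At least 2-fold were 3 of the rises, beside 8.59% of all genes tested. The median was 0.60, as against -0.17 without Dex. For 12 genes the difference of the responses lay above 0 and for none below (12.4% and 12.9% of all genes tested). Idh3a, the catalytic subunit of NAD-dependent isocitrate dehydrogenase, went from 6.63, 6.15 and 6.28 FPKM to 42.9, 37.3 and 29.0 FPKM, a difference of 2.33 ± 0.14, and was above the 16.9 and 15.8 FPKM of LPS alone. Mdh2, mitochondrial malate dehydrogenase, went from 81.0, 82.0 and 105 FPKM to 256, 331 and 343 FPKM (1.78 ± 0.14). Sdhc, a subunit of succinate dehydrogenase, rose by 1.13 ± 0.12 and Suclg1, a subunit of succinyl-CoA ligase, by 0.84 ± 0.13. Named after their values were seen, the genes that fell were Suclg2, at -0.77 ± 0.13, and Idh3g, at -0.28 ± 0.11 (not after centring, 0.04), and Idh2 did not pass (-0.24 ± 0.14). Of 12 tested protein genes of the mitochondrial genome 8 rose and none fell, beside 19.4% and 43.3% of all genes tested, with a median of 0.61. Without Dex 11 of these fell and none rose (32.6% and 18.6%), with a median of -0.92. The difference of the responses lay above 0 for 9 (12.4% of all genes tested). The 8 became 4 without Dex replicate 2 or without LPS + Dex replicate 3. The complex I subunit mt-Nd1 was at 1145, 929.7 and 923 FPKM with Dex and 2209.8, 2861 and 2578 FPKM with LPS + Dex, a difference of 1.35 ± 0.15. mt-Nd2 rose by 0.83 ± 0.14 and mt-Nd3 by 1.35 ± 0.14, while mt-Co3, listed at only 6.40, 4.40 and 5.80 FPKM with Dex, rose by 0.85 ± 0.26 and lost its call without Dex replicate 2 or LPS + Dex replicate 3.

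**Figure D3:**
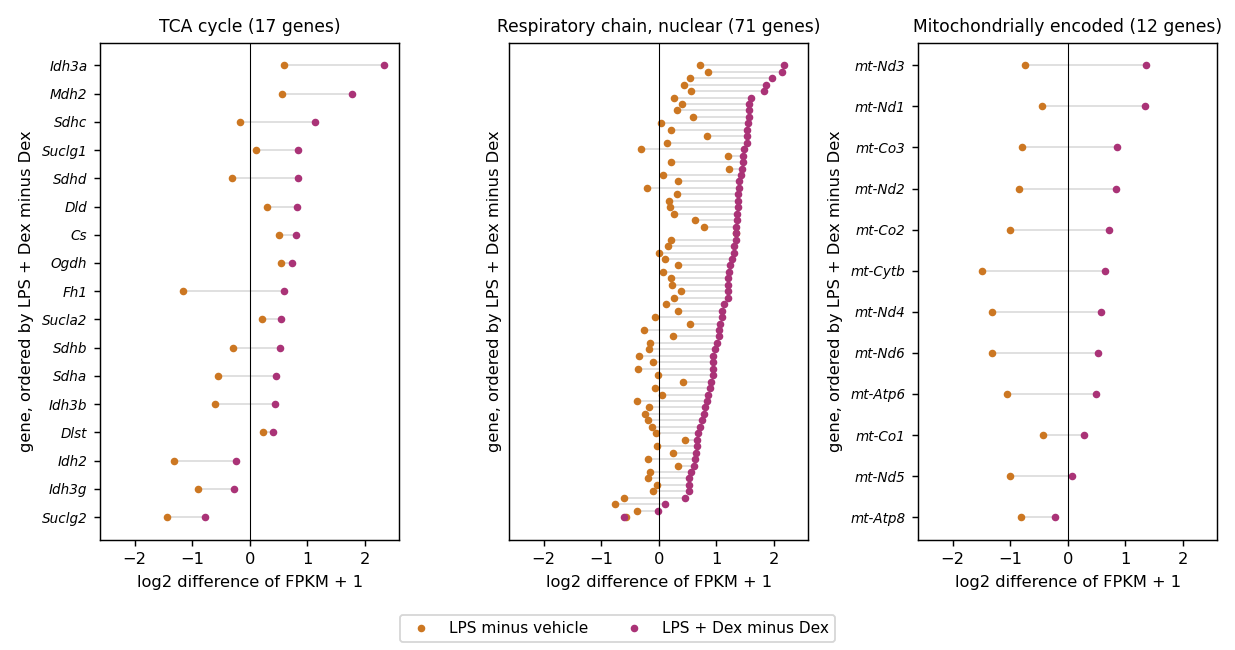
Log2 difference of FPKM + 1 for each tested gene of the TCA cycle, the nuclear-encoded respiratory chain and the mitochondrial genome, LPS minus vehicle and LPS + Dex minus Dex, with a line joining the points of a gene. With Dex the medians were 0.60, 1.20 and 0.61, and without Dex -0.17, 0.17 and -0.92.

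Genes that glucocorticoids are known to induce mostly fell when LPS was added to Dex. Of 19 tested genes 12 fell and 4 rose, beside 43.3% and 19.4% of all genes tested, with a median of -0.96, and 9 fell and 4 rose after centring, beside 28.7% and 29.3%. Without Dex 8 fell and 5 rose, beside 32.6% and 18.6% of all genes tested, with a median of -0.42. The difference of the responses lay above 0 for 7 and below 0 for 7, beside 12.4% and 12.9% of all genes tested. Ddit4, an inhibitor of mTOR signaling, was at 464, 528 and 569.8 FPKM with Dex and 54.3, 93.5 and 38.2 FPKM with LPS + Dex, a difference of -3.14 ± 0.26. With vehicle it was at 2.19, 1.94 and 2.70 FPKM, below every LPS + Dex library. The transcription factor Klf9 fell by 3.06 ± 0.36 from 37.4, 42.0 and 28.3 FPKM to 6.56, 2.997 and 1.76 FPKM. Cd163, the hemoglobin scavenger receptor, fell by 2.66 ± 0.32 from 30.8, 29.6 and 19.8 FPKM to 4.29, 5.19 and 1.46 FPKM. The exception among the 4 largest changes was Mt2, a metal-binding metallothionein, which rose by 3.39 ± 0.27 from 210.3, 167 and 235 FPKM to 1884, 1462 and 3523 FPKM, as against 122 and 152 FPKM with LPS alone. The well-known targets Tsc22d3, which encodes GILZ, and Fkbp5, both chosen after their values were seen, stayed above vehicle cells. Tsc22d3 fell by 1.57 ± 0.12 and was at 724, 667 and 736 FPKM with Dex, 248, 257 and 210.0 FPKM with LPS + Dex and 54.3, 51.7 and 54.6 FPKM with vehicle. Fkbp5 differed by -0.41 ± 0.16 (adjusted p = 0.039) and was at 321, 355 and 346 FPKM with Dex, 287, 297 and 198 FPKM with LPS + Dex and 1.599, 1.91 and 2.23 FPKM with vehicle.

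Most lysosomal genes fell with LPS also when Dex was present. Of 28 tested 23 fell and 3 rose, beside 43.3% and 19.4% of all genes tested, with a median of -1.20, close to the -1.22 without Dex, and 19 fell after centring (28.7%). Psap, the precursor of the saposins, fell by 3.37 ± 0.16 from 5217, 6744 and 7331 FPKM to 549.7, 731 and 577 FPKM. The proteases Ctsl and Ctsb differed by -2.41 ± 0.14 and -2.32 ± 0.15, and the lysosomal lipase Lipa by -2.53 ± 0.16, all of them lower. Of 18 scavenger and clearance genes 11 fell and 5 rose (3 without Dex replicate 1), beside 43.3% and 19.4% of all genes tested, with a median of -1.84. Apoe, apolipoprotein E, fell from 8025, 8268 and 11844 FPKM to 463, 441 and 1018 FPKM (-3.96 ± 0.30), and Gas6, the bridge between dying cells and the receptor MERTK, from 123, 153 and 192 FPKM to 3.78, 7.56 and 3.80 FPKM (-4.73 ± 0.23). Marco and Mrc1, described above, mark the opposite ends of this list.

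Of 21 tested macrophage surface genes 9 rose and 11 fell, beside 19.4% and 43.3% of all genes tested. Trem2, a lipid-sensing receptor, fell by 4.86 ± 0.18 from 267, 331 and 307 FPKM to 6.99, 12.6 and 9.22 FPKM, and Clec7a, the β-glucan receptor dectin-1, fell by 3.54 ± 0.27. Clec4e, the receptor Mincle, rose by 4.13 ± 0.24 from 37.3, 23.4 and 41.3 FPKM to 649, 491 and 658 FPKM. Fcgr1, the high-affinity IgG receptor, rose by 2.96 ± 0.25 from 10.8, 7.00 and 6.47 FPKM to 61.3, 99.6 and 52.0 FPKM, near the 72.7, 103 and 66.2 FPKM of vehicle cells. Among the markers, Cd68 fell by 1.95 ± 0.20 and Mertk, the receptor for GAS6, fell by 1.90 ± 0.18. Of 16 matrix genes 10 fell and 3 rose (43.3% and 19.4% of all genes tested), and 8 fell and 4 rose after centring (28.7% and 29.3%). Mmp14, a membrane-bound protease, rose by 4.87 ± 0.29 from 18.6, 11.6 and 25.3 FPKM to 582, 509.5 and 539.7 FPKM, while macrophage elastase Mmp12, neutrophil collagenase Mmp8 and the inhibitor Timp2 were lower, with differences of -3.70 ± 0.51, -3.35 ± 0.35 and -3.45 ± 0.16.

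Of 14 class II and costimulation genes 5 rose and 2 fell, beside 19.4% and 43.3% of all genes tested. The ligand Icosl rose by 3.68 ± 0.16 from 5.58, 5.07 and 5.55 FPKM to 93.6, 62.1 and 91.7 FPKM and Cd40 by 3.41 ± 0.23, to 60.1, 47.7 and 80.0 FPKM as against 927 and 1356 FPKM with LPS alone. Cd86, a ligand of CD28, fell by 3.26 ± 0.22 from 11.4, 13.6 and 12.5 FPKM to 0.572, 0.369 and 0.296 FPKM, whereas LPS alone gave 18.9 and 35.7 FPKM (difference of the responses -4.03 ± 0.34). H2-Ab1, a class II chain, was at 15.6, 1.17 and 15.03 FPKM with Dex and 213, 23.4 and 158 FPKM with LPS + Dex, a difference of 3.497 ± 1.03 (adjusted p = 0.012). Replicate 2 was the lowest of its group for H2-Ab1 in both conditions and with vehicle (451, 57.2 and 381 FPKM). The call was lost without Dex replicate 2, at 2.53 (adjusted p = 0.055), and with no moderation (adjusted p = 0.0504).

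Most sterol synthesis genes rose. Of 20 tested 19 rose and none fell, beside 19.4% and 43.3% of all genes tested. Of the rises 16 were at least 2-fold, beside 8.59% of all genes tested. The median was 1.53, as against 2.43 without Dex. Sqle, squalene epoxidase, went from 2.503, 3.06 and 3.48 FPKM to 41.1, 24.8 and 29.1 FPKM (3.001 ± 0.24). Mvd, another enzyme of the pathway, rose by 2.82 ± 0.19. The response was smaller with Dex for 3 of these genes (12.9% of all genes tested), for 1 without LPS replicate 3, for 6 without vehicle replicate 3 and for 8 without LPS + Dex replicate 1.

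Of 33 tested cell cycle genes 12 fell and 4 rose, beside 43.3% and 19.4% of all genes tested, with a median of -0.39, and 10 fell and 7 rose after centring (28.7% and 29.3%). Without Dex 28 fell (32.6%), with a median of -1.62, and for 17, beside 12.4% of all genes tested, the difference of the responses lay above 0 (11 without LPS replicate 2). Cenpa, the centromeric histone, fell by 2.88 ± 0.27 from 13.9, 20.0 and 12.6 FPKM to 1.04, 2.09 and 0.692 FPKM, and the mitotic genes Cdc20 and Plk1 were lower, with differences of -1.56 ± 0.28 and -1.50 ± 0.21. Ccne1, cyclin E1, rose by 2.78 ± 0.24 to 11.7, 16.8 and 13.5 FPKM. Of 20 SOCS and JAK-STAT genes 5 rose and 8 fell, beside 19.4% and 43.3% of all genes tested, and 9 and 6 after centring (29.3% and 28.7%). Socs1 rose by 4.24 ± 0.25 to 22.1, 13.2 and 33.3 FPKM, while the IL-6 receptor chains Il6st and Il6ra were lower, with differences of -2.10 ± 0.32 and -2.06 ± 0.23. Among 12 genes of messenger decay and MAP kinase phosphatases 5 rose and 4 fell (19.4% and 43.3% of all genes tested), and 3 rose without Dex replicate 2 or 3, LPS + Dex replicate 1 or 3, or vehicle replicate 3. The phosphatases Dusp2 and Dusp6 rose by 4.01 ± 0.28 and 1.38 ± 0.16, and the decay factors Zfp36l1 and Zfp36l2 were lower, with differences of -3.22 ± 0.26 and -1.93 ± 0.19.

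**Figure D4:**
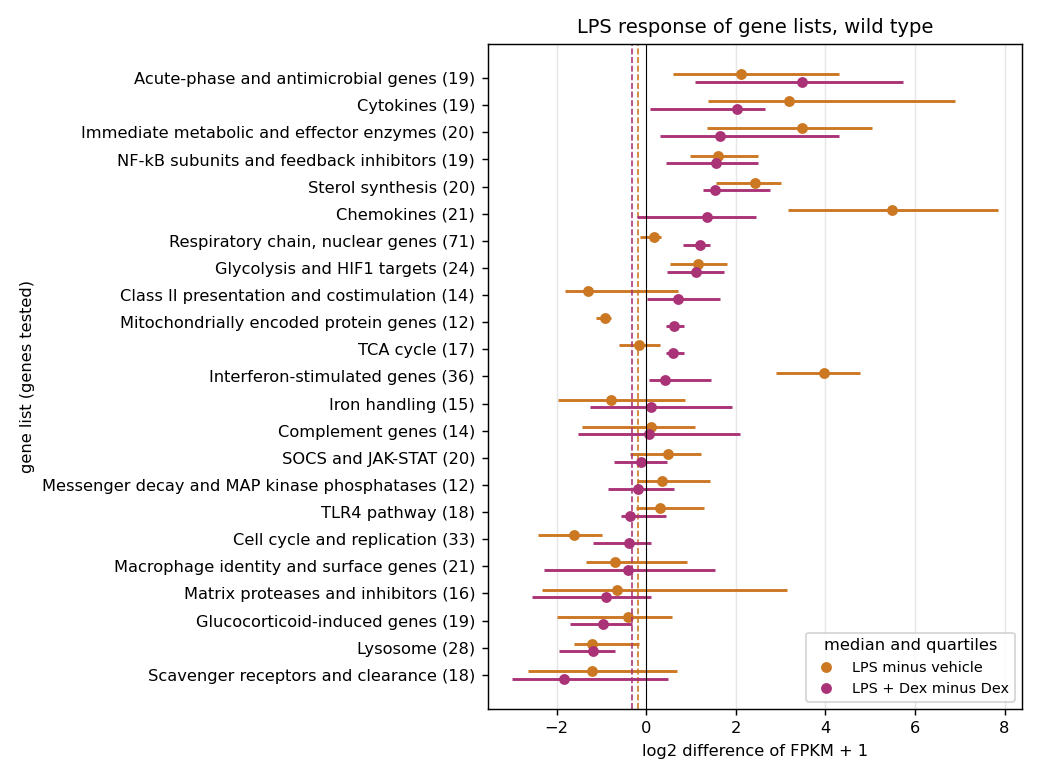
Median (point) and quartiles (line) of the log2 difference of FPKM + 1 over the tested genes of each of 23 lists, for LPS minus vehicle and for LPS + Dex minus Dex. Dashed lines mark the medians over all 11471 genes, -0.18 without and -0.31 with Dex; interferon-stimulated genes and chemokines had lower medians with Dex, and mitochondrial and acute-phase genes higher ones.

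Most genes that LPS changed without Dex also changed with it, in the same direction. Across 11471 genes the differences with and without Dex, which share no library, had a Pearson correlation of 0.68 and a Spearman correlation of 0.62, given as a description since genes are not independent replicates. Of 2131 genes that LPS raised without Dex (18.6% of those tested), 1269 also rose with Dex, 156 fell and 706 did not pass. The rises and falls are 59.5% and 7.32%, beside 19.4% and 43.3% of all genes tested. The responses themselves differed for 2905 genes (25.3%), 1421 above 0 and 1484 below 0. Among the genes that LPS raised without Dex the difference was below 0 for 836, above 0 for 156 and not called for 1139. These are 39.2% below and 7.32% above 0, beside 12.9% and 12.4% of all genes tested. Of the 836, 247 still rose with Dex, 433 did not pass and 156 fell. Among 3741 genes that LPS lowered without Dex (32.6%), 2750 (73.5%) also fell with Dex, beside 43.3% of all genes tested. Their responses differed for 875 above 0 (23.4%) and 143 below (3.82%), beside 12.4% and 12.9% of all genes tested. Both sets were chosen by the response without Dex, which the difference subtracts. That choice itself favors differences below 0 among raised genes and above 0 among lowered ones. These counts depend on 2 libraries in particular: without LPS + Dex replicate 1 the differences were 1580 above and 2496 below 0, and without LPS replicate 2, which leaves 1 LPS library assumed to vary like the other groups, 878 and 831.

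**Figure D5:**
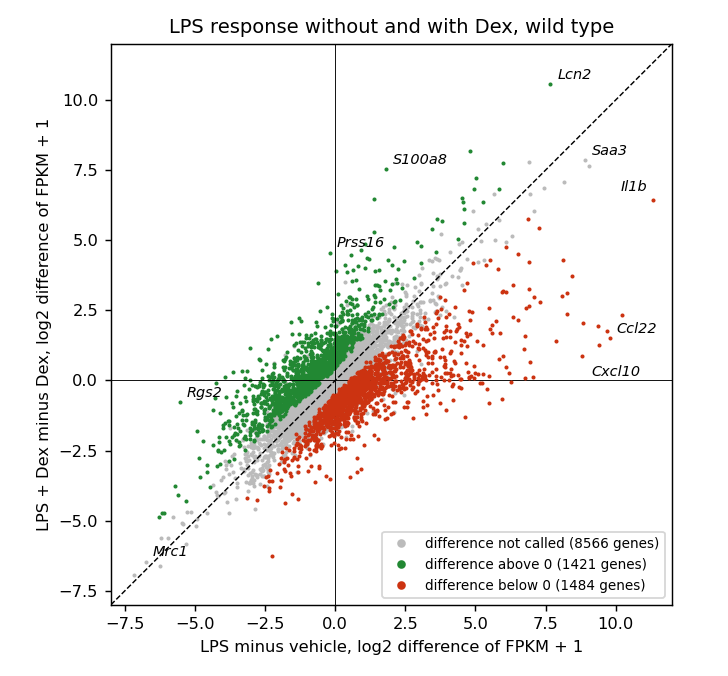
LPS + Dex minus Dex (vertical axis) against LPS minus vehicle (horizontal axis), log2 difference of FPKM + 1, for 11471 genes; the dashed line marks equal responses and colors mark the 1421 genes with a difference above 0 and the 1484 below 0. Genes strongly raised by LPS alone spread below the line, down to no response with Dex. Of the largest falls reported, Cbr2 lies below the line, whereas the others, such as Mrc1, lie near it.

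The largest losses of response were those of Ccl22, Cxcl3, Cxcl10, Ptgs2 and Il1a. Ccl22, a chemokine for regulatory T cells, was at 0, 0 and 0.0403 FPKM with Dex, 1.19, 5.17 and 0.764 FPKM with LPS + Dex and 1132 and 1010.3 FPKM with LPS alone, and its responses differed by -8.28 ± 0.54 (adjusted p = 2.6e-06). Cxcl3, a neutrophil attractant, was at 1.15, 0.626 and 3.27 FPKM with LPS + Dex and 1117 and 616 FPKM with LPS alone (-8.14 ± 0.47). Cxcl10, an interferon-induced chemokine, was at 0.650, 0.260 and 2.40 FPKM with LPS + Dex and 813 and 1302 FPKM with LPS alone (-7.95 ± 0.47). The residual rise of these 3 with Dex, 1.51, 1.28 and 0.86, passed the test at levels of a few FPKM or less. Cxcl3 and Cxcl10 had a mean below 1 FPKM over the 6 libraries compared and entered the test only through the libraries with LPS alone, so these rises are uncertain. That of Ccl22 was 0.96 without LPS + Dex replicate 2. That of Cxcl10 lost its call when any of the Dex libraries was left out, with adjusted p of 0.056 to 0.084, and without LPS + Dex replicate 3, at 0.45 (adjusted p = 0.096). It was also lost with only the 6 libraries compared (adjusted p = 0.056), no filter (adjusted p = 0.086) or no moderation (adjusted p = 0.079). Ptgs2, the inducible cyclooxygenase, was at 3.54, 1.69 and 3.34 FPKM with LPS + Dex and 1185 and 1200.3 FPKM with LPS alone (-7.95 ± 0.30). Il1a was at 7.55, 1.65 and 9.79 FPKM with LPS + Dex and 1809 and 1729 FPKM with LPS alone (-7.89 ± 0.60).

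The largest differences of the responses above 0 were those of S100a8, described above, Cxcl13, Prss16, Rgs2 and Lpl. Cxcl13, a B cell attractant, was at 0.0545, 0.141 and 0.0920 FPKM with Dex, 125, 159.8 and 43.9 FPKM with LPS + Dex and 3.76 and 1.35 FPKM with LPS alone, and its responses differed by 5.09 ± 0.61. Prss16, a serine protease, was at 1.49, 0.885 and 2.32 FPKM with Dex and 53.3, 49.0 and 74.6 FPKM with LPS + Dex, while vehicle and LPS alone stayed below 0.5 FPKM (4.76 ± 0.34). For Rgs2, a regulator of G protein signaling, the difference was 4.78 ± 0.26. LPS lowered it from 244, 223 and 235 FPKM to 4.49 and 3.61 FPKM without Dex and from 109.9, 92.2 and 84.2 FPKM to 66.7, 61.7 and 41.0 FPKM with Dex. Lpl, lipoprotein lipase, fell from 1519, 1178 and 1737 FPKM to 227 and 139.7 FPKM without Dex and went from 122, 315 and 199 FPKM to 572, 283 and 526 FPKM with it, where the groups overlap. Its difference of the responses was 4.18 ± 0.53, and the rise of 1.15 ± 0.35 (adjusted p = 0.015) lost its call without Dex replicate 1 (0.81, adjusted p = 0.067) or with no moderation (adjusted p = 0.053).

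The same comparison in BMDMs labelled AMPKa1-/-, lacking a catalytic subunit of the energy sensor AMPK, served as a second set of libraries. The targeted gene, Prkaa1, does not check that label at the level of the whole gene. It was at 21.5, 14.03 and 20.4 FPKM with Dex and 12.5, 12.9 and 9.65 FPKM with LPS + Dex in the libraries labelled AMPKa1-/-, and at 26.1, 23.2 and 19.1 FPKM and 20.5, 13.7 and 8.59 FPKM in wild-type. Which part of the gene was deleted is not given in the sources used here. In those libraries 2163 genes rose and 4386 fell of 11356 tested. Of the 985 wild-type genes raised at least 2-fold 973 were tested there, and 933 of these (95.9%) rose as well. Of the 2082 lowered at least 2-fold 2047 were tested, and 1713 (83.7%) fell as well. The test of the genotype difference was passed by 9 of 11356 genes (0.0793%), none of them among the 10 largest rises or the falls described above. For Eno1b, Gm4735 and Klk1b22 among them it does not show a difference of response, since their AMPKa1-/- libraries all lay near 0 FPKM. An unadjusted p under 0.05 was found for 2076 genes (18.3%). Without LPS + Dex replicate 1 of the wild type, 285 genes differed with a larger value in AMPKa1-/- and 191 with a smaller.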

How the data were processed

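RNA-seq of BMDM cultures was used. The authors deposited one FPKM value per gene and library. The submitters' processing notes name Bowtie2 2.2.3, TopHat2 2.0.12, HTSeq 0.6.1, DESeq2 and the builds GRCm38 and mm10, without their order. FPKM are not counts, and 57.1% to 63.9% of values under 10 fragments came out whole within 0.001 fragments when converted back, so no count test was run. The 3 wild-type Dex, 3 LPS + Dex, 3 vehicle and 2 LPS libraries (15942581 to 28176237 fragments) entered the fit. A wild-type LPS replicate 1 is not among the 35 samples, and the 12 libraries with damage-associated molecular patterns were not used here.

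Values were taken as log2(FPKM + 1), and genes with a mean of at least 1 FPKM over these 11 libraries were kept (11471 of 47069, of which 46574 have a symbol in the annotation). A linear model with 4 group means was fitted with limma 3.58.1 in R 4.3.3, with variances moderated along a trend, with a Benjamini-Hochberg adjusted p of 0.05 as threshold. The genotype comparison used 23 libraries in 8 groups. Tables and figures were made with Python 3.11.15. The procedure was first run on simulated data with independent noise and few changed genes. That setting differs from these data, so it gives no error rate for them. The study's methods give N as cultures of individual mice unless noted otherwise, but the labels do not name the animal of each library. The p-values measure the spread between these libraries. Genes with near-identical copies may share reads.

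Named genes are the 10 largest rises and falls with groups that do not overlap and a mean of at least 5 FPKM in the higher group, up to 4 called genes with the largest change in each of 23 lists and 8 marker lists, the 5 largest differences of the responses each way, the genes of LPS recognition and Nr3c1, and the 3 smallest p-values between genotypes. Members, lists and rule were chosen with earlier results of these data known, and some genes that the rule names are not reported here.

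Replicate numbers shared between the groups were checked for pairing: across genes, the deviations of same-numbered Dex and LPS + Dex libraries from their group means had Pearson correlations of 0.28, 0.21 and 0.54 for replicates 1, 2 and 3, although Dex replicate 2 and LPS + Dex replicate 1 also reached 0.28. For vehicle the same-numbered correlations were 0.06, -0.11 and -0.18 with Dex and 0.28, 0.35 and -0.25 with LPS + Dex, so the numbers were not shown to pair the vehicle libraries. A fit with the replicate number as a block was used as an alternative. Other alternatives were a pseudocount of 0.1, other filters, scalings and libraries, no moderation, and leaving out each library.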

Additional observations from a re-analysis of the deposited data

Results flagged for a closer look

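Groups of 3 libraries are too small for a test of single outlying samples, so none was run. The interaction term of limma's fit, for genotype and the LPS + Dex against Dex comparison, was called for 3 genes that the rule names. As their levels below show, these calls do not establish that a response differed.

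The Eno1b response in the libraries labelled AMPKa1-/- minus that in wild-type was -1.77 on the log2 scale (adjusted p = 8.6e-04). Eno1b, an enolase gene, was at 37.6, 34.6 and 40.9 FPKM with Dex and 99.7, 147 and 179 FPKM with LPS + Dex in wild-type, and at 0.201, 0.215 and 0.0804 FPKM and 0.184, 0.310 and 0.185 FPKM in AMPKa1-/-. The same difference for Gm4735 was -1.61 (adjusted p = 1.5e-04), with values from 4.34, 4.23 and 4.15 FPKM to 12.3, 16.5 and 17.1 FPKM in wild-type and from 0, 0.0724 and 0.108 FPKM to 0.124, 0 and 0.0832 FPKM in AMPKa1-/-. For Klk1b22, a kallikrein gene, the AMPKa1-/- response minus that of wild-type was 2.90 (adjusted p = 0.0024). It went from 7.63, 27.7 and 16.2 FPKM to 0.830, 1.14 and 1.48 FPKM in wild-type and from 0, 0 and 0.0550 FPKM to 0, 0 and 0 FPKM in AMPKa1-/-. For all 3 genes every AMPKa1-/- library lay at 0 to 0.310 FPKM, below the pseudocount of 1, and the genes passed the filter only through the wild-type libraries. Each difference therefore largely restates the wild-type response with its sign turned, and does not show that a response differed between genotypes. Both families have near-identical copies, so the values of these genes are uncertain.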

How the results depend on the processing

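The split between rising and falling genes depended on scaling: 2230 higher and 4962 lower as deposited, 3364 and 3289 centred on one median, 3179 and 3580 after quantile normalization, and 2326 and 4606 on a common sum without the 10 most abundant genes. With the replicate block, 2246 were higher and 5020 lower, the responses with and without Dex differed for 1475 above and 1797 below 0, and those of the genotypes for 7 and 7 genes. With the block and only the 6 libraries compared, an alternative chosen after seeing the data, the counts were 2119 and 4898. The call of at least 2-fold was also chosen after seeing the data. Leaving out 1 library gave 1924 to 2260 higher and 4108 to 5361 lower genes, 878 to 1670 differences above and 831 to 2496 below 0, and 2 to 285 and 2 to 191 genotype differences. The last reached their highest counts without wild-type LPS + Dex replicate 1. Genotype differences numbered 9 above and 3 below 0 after centring, and 0 and 2 with a mean of at least 5 FPKM. With no filter there were 28 and 20, and with a pseudocount of 0.1 there were 0 and 0. No named gene changed sign while called. In LPS + Dex against Dex, 9 named genes lost their call under at least 1 alternative: Ccr7, Cxcl10, Col1a1, Col1a2, H2-Ab1, Kdr, Lpl, Myd88 and mt-Co3. Nr3c1 and Ticam2 gained one. With a pseudocount of 0.1 the rises of Ccl22, Cxcl3, Cxcl10, Cfb and Il12a were 4.01, 3.67, 2.54, 4.83 and 5.97, over 1.5 times the values given. Among differences of the responses, 20 named genes gained a call and 20 lost one under at least 1 alternative. As the numbers were not shown to pair the vehicle libraries, values of the replicate block for differences of the responses are given only here. It gave Tnf (-0.82, adjusted p = 0.018), Acod1 (-1.37, adjusted p = 0.0099), Tnfaip3, Ccl6, Ptges, Pfkl, H2-Ab1 and Camp a call for that difference and took it from Tlr2 and Zfp36l2. Tnfaip3 also gained it without LPS + Dex replicate 1 (-0.91, adjusted p = 0.027). The causes were not tested. Depth limits genes below about 1 FPKM, which the pseudocount compresses.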

Other observations

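Some genes responded to LPS with Dex without a call for LPS alone. Of 5599 genes not called without Dex, 812 (14.5%) were higher and 2056 (36.7%) lower with LPS + Dex against Dex, below the 19.4% and 43.3% of all genes tested. The responses themselves differed for 390 above (6.97%) and 505 below 0 (9.02%), beside 12.4% and 12.9%. The following examples were chosen after their values were seen, by size. Rgcc, a regulator of the cell cycle, went from 0.0683, 0.235 and 0.0576 FPKM with Dex to 19.0, 13.7 and 23.2 FPKM with LPS + Dex (4.10 ± 0.22), and from 0.0592, 0.324 and 0.382 FPKM with vehicle to 0.307 and 0.915 FPKM with LPS. The difference of its responses was 3.76 ± 0.33 (adjusted p = 1.7e-05). Slc13a3, a dicarboxylate transporter, went from 1.49, 0.883 and 1.59 FPKM to 33.8, 49.4 and 24.7 FPKM with Dex (3.95 ± 0.25, difference of the responses 3.32 ± 0.38). Ly6c2, a marker of inflammatory monocytes, went from 0.804, 0.323 and 0.136 FPKM to 16.1, 14.1 and 15.5 FPKM (3.54 ± 0.24), with 0.744, 0.254 and 0.171 FPKM in vehicle cells and 1.69 and 0.574 FPKM with LPS. In the other direction, Il15, a cytokine for NK and T cells, went from 9.86, 9.98 and 9.84 FPKM to 1.47, 0.911 and 0.777 FPKM (-2.42 ± 0.15, difference of the responses -2.78 ± 0.22). Abca1, the cholesterol exporter, went from 124, 133 and 93.0 FPKM to 22.8, 10.5 and 9.11 FPKM (-3.05 ± 0.32), and Maf, a transcription factor of resident macrophages, from 188, 230.1 and 185 FPKM to 43.5, 45.9 and 15.7 FPKM (-2.62 ± 0.32).

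The subunits of calprotectin parted. While S100a8 rose to 617, 478 and 1147 FPKM, S100a9 was at 0.972, 0.418 and 1.85 FPKM with Dex and 1.03, 0.211 and 0.338 FPKM with LPS + Dex (-0.42 ± 0.65, adjusted p = 0.59). In the same libraries Mpo was at 0 throughout. Replicate 2 had less H2-Ab1 than replicates 1 and 3 in the Dex, LPS + Dex and vehicle groups alike. These are given as values, and their causes were not tested.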
